A study of Mus musculus with 12 samples.

Results

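Proteases that cut the extracellular matrix or shed proteins from the cell surface, and the inhibitors that hold them in check, were followed in fibroblasts that lack TSC2. Members were the genes whose symbol on the array's annotation is that of a matrix metalloproteinase (MMP), a tissue inhibitor of metalloproteinases (TIMP), an ADAM, an ADAMTS or an ADAMTS-like protein. The rule found 70 of 18193 genes with a single symbol, read by 124 probe sets, and where a gene had several, the one brightest on average over all 12 arrays stood for it. The rule used names and mean brightness only, not the comparisons. TSC2-/- mouse embryonic fibroblasts, kept in DMEM with 10% CCS, were studied in 4 groups of 3 Affymetrix arrays. In the first experiment the cells received vehicle (DMSO) or 20 nM rapamycin, an inhibitor of the growth kinase mTOR, for 14 h. In the second, confluent cells were infected for 10 h with adenovirus expressing either GFP or the transcriptional coactivator PGC-1alpha, and were collected 14 h after the medium was changed. All 4 groups thus share the loss of TSC2, both infected groups carry a virus, and no wild-type cells were included. The Tsc2 probe set read 182 to 217 with rapamycin and 248 to 278 with vehicle, and in the infected cells 203 to 252 for GFP and 233 to 257 for PGC-1alpha; no label places it relative to the deleted part, so it does not check the genotype. The labels do not say how many cell lines or clones were used. The design text calls the triplicates biological, and the p-values measure the spread between these arrays.

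MMPs, ADAMs and ADAMTS proteins share a catalytic domain built around a zinc ion. MMPs are made as inactive proenzymes and digest collagens, proteoglycans and other matrix proteins; membrane-anchored ADAMs release growth factors, cytokines and receptors from the cell surface; secreted ADAMTS proteins cut proteoglycans and process procollagens. TIMPs bind the active site of these enzymes, and fibroblasts are a main source of both proteases and inhibitors in connective tissue. The arrays measured transcripts only, so neither the amount of protein nor its activity was observed.

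Median intensity lay between 77.5 and 81.0 on the 12 arrays. All 7 fibroblast markers lay above the median of all probe sets. Being above it does not set fibroblasts apart, since the epithelial marker Epcam averaged 655 with vehicle and 771 with GFP. Of other cell types, 4 of 6 macrophage markers, 3 of 4 endothelial markers and 1 of 4 epithelial markers lay below that median in the rapamycin experiment, and 4, 3 and 2 did in the PGC-1alpha experiment. The summed intensity of the macrophage markers ran from 544 to 556 with rapamycin and from 502 to 542 with vehicle, and that of the epithelial markers from 943 to 997 and from 873 to 911; among them Cd68, Cdh1 and Krt14 rose. Neither pair of ranges overlapped. The endothelial sums did overlap, at 283 to 296 and 266 to 293, as did the fibroblast sums, at 37693 to 41025 and 36568 to 38172, although Pdgfra, Pdgfrb and Dcn rose. With PGC-1alpha and GFP they ran from 489 to 516 and from 470 to 523 for macrophage, from 232 to 239 and from 219 to 248 for endothelial, and from 969 to 1017 and from 880 to 1040 for epithelial markers, all overlapping. The fibroblast sums did not overlap there, the PGC-1alpha arrays lying at 34089 to 34523 and the GFP arrays at 30385 to 34055, and 0 of the 7 markers passed by limma (3 at an unadjusted p under 0.05). The ratio of 3' to 5' signal for Gapdh, a sign of RNA integrity, differed without overlap between the groups of each experiment (0.807 to 0.826 with rapamycin, 0.840 to 0.861 with vehicle, 0.894 to 0.905 with PGC-1alpha, 0.865 to 0.879 with GFP). The same ratio for actin overlapped between the groups of each experiment. Rapamycin arrays spanned 1.299 to 1.320, inside the vehicle span of 1.291 to 1.329. The lowest PGC-1alpha array, at 1.314, lay just under the highest GFP array, at 1.315. A difference in RNA integrity thus rests on the Gapdh ratio alone. The part of the marker and Gapdh differences in the results was not tested. In bulk RNA, fewer cells of a type and less RNA per cell cannot be told apart.

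Rapamycin raised 14 of the 70 members and lowered 1, Adamts1. The raised genes were Mmp11, Mmp23 and Mmp3 among the MMPs, Timp3 and Timp2 among the inhibitors, Adam22, Adam10 and Adam19 among the ADAMs, and Adamts9, Adamts20, Adamts7, Adamts12, Adamts5 and Adamts10. In either direction 15 of the 70 members passed, beside 29.3% of all genes. At limma's unadjusted p under 0.05, 23 of the 70 members did, beside 38.2% of all genes. Both shares were lower among the members than over all genes. Raised members made up 20% of the set, where 11.3% of all genes rose, and the lowered one 1.43%, where 18.0% of all genes fell. The median log2 change was 0.02 over the members and -0.01 over all genes. A call means an adjusted p under 0.05 in limma, a linear model with a moderated spread, after Benjamini-Hochberg adjustment over all 45037 probe sets. Of the members 28 were dim, that is with a mean log2 value under the median of all probe sets (6.30, an intensity of 78.7), and 2 of the 15 calls, Adamts12 and Adamts20, came from dim probe sets. A dim probe set may read background: the 17 measured genes typical of other tissues, such as liver, testis and pancreas, had vehicle means from 15.0 to 248, with a median of 49.4, so being above the limit does not show expression either.

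The split between rises and falls depended on the scaling. The bacterial spike-in controls read higher on the rapamycin arrays (mean log2 10.62 to 10.83) than on the vehicle arrays (10.50 to 10.60). The controls were read from the deposited, already normalized values. Whether they follow RNA per cell was not tested. Scaling on them moved every change by -0.19 on the log2 scale, so that 7 members rose and 25 fell. Of all 45037 probe sets, 1448 rose and 18556 fell under that scaling, beside 5168 and 6301 under the authors' normalization. The raised share of all called probe sets thus went from 45.1% to 7.24%, and the falls were not particular to the members. The 7 raised members were all among the 14 of the authors' normalization, namely Mmp11, Adamts9, Adamts20, Mmp23, Adamts7, Adamts12 and Timp3. Adamts1 fell under both scalings. Changes below are relative to the authors' normalization, in which the median change of all probe sets was -0.00 on the log2 scale.

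**Figure D1:**
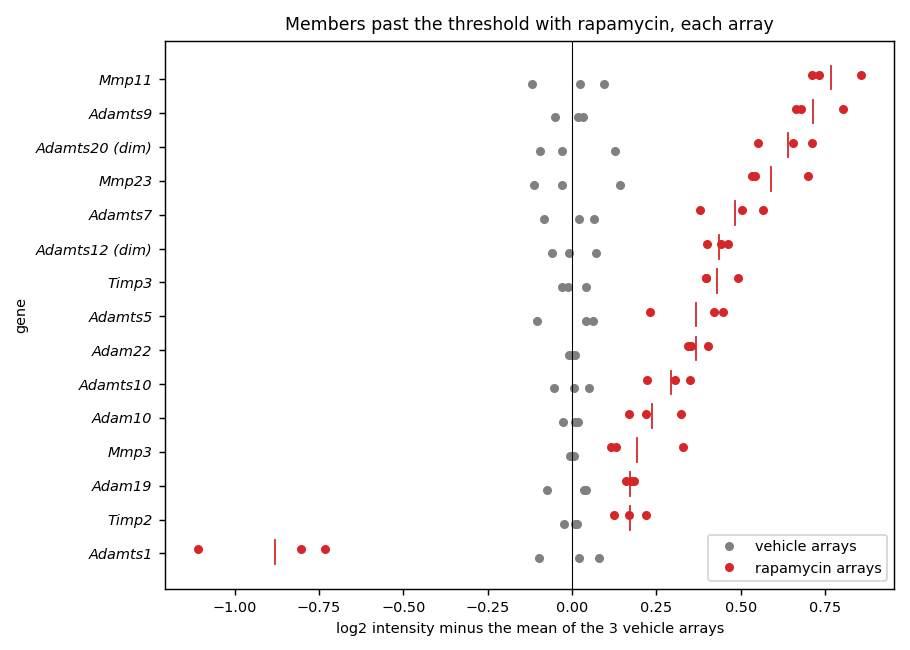
Each point is 1 array of the vehicle (grey) or rapamycin (red) group for the 15 members past the threshold, as log2 intensity minus the mean of the vehicle arrays, and the vertical red line is the mean of the rapamycin arrays. The groups do not overlap for any of the 15, but these were picked by p-value on the same arrays, so this adds no support. The share of all genes without overlap is not given here. Mmp11 sits highest, at a mean of 0.77, and Adamts1 lowest, at -0.88. With spike-in scaling the means of Timp2 and Adam19 turned to -0.02.

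Promoters are shown for the 3 called members with the largest changes, Adamts1, Mmp11 and Adamts9, and for Timp3, the inhibitor whose 4 probe sets all rose. RefSeq windows of 250 bases before and 50 after the transcription start (build GRCm38.p6) were found for 41 of the 70 members and 12 of the 15 called ones. The bases before the start are printed for Adamts9 at chr6:92943535-92943784 (- strand), Adamts1 at chr16:85803114-85803363 (- strand), Timp3 at chr10:86300162-86300411 (+ strand) and Mmp11 at chr10:75932503-75932752 (- strand). Capitals mark 3 words, each searched on both strands. One is TATAAA, the core of the TATA box. Another is GGGCGG, the GC box that Sp1-type factors are known to bind. The last is TGANTCA, a loose form of the site of AP-1, the dimer of Fos and Jun proteins.
Adamts9: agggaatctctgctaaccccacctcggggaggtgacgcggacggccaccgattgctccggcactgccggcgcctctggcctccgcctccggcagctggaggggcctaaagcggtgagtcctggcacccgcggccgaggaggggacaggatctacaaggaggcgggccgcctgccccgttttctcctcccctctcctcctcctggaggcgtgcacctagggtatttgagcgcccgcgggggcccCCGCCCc
Adamts1: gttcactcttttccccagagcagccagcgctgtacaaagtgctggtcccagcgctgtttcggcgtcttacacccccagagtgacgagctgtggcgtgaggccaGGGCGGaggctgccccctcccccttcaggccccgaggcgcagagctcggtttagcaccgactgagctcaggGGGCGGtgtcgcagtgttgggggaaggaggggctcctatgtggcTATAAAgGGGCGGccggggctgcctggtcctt
Timp3: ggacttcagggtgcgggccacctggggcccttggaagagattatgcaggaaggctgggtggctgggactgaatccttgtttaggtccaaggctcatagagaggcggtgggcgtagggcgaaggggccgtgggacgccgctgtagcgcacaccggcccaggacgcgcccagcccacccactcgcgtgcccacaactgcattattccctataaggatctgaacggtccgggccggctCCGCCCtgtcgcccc
Mmp11: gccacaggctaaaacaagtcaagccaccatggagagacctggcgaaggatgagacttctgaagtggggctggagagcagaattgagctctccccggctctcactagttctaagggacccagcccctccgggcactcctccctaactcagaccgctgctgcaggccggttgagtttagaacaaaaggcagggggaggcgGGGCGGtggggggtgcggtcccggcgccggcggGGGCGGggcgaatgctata
In these stretches the lowered Adamts1 had 3 GC boxes and a TATA box, and the raised Mmp11 had 2 GC boxes while Adamts9 and Timp3 had 1 each. None of the 4 held the AP-1 word. Over all 32851 windows of 300 bases, 7.81% held the AP-1 word, 13.6% the TATA word and 35.7% the GC word. A word is a description of the letters and not evidence of a bound factor.

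Proteoglycan-cleaving ADAMTS enzymes went both ways with rapamycin. Of 7 measured members of this group, which digest aggrecan, versican and related proteoglycans, 3 rose and 1 fell, against 2 and 4 with spike-in scaling. Adamts9, a versican-cleaving enzyme, read 1724, 1879 and 1704 on the rapamycin arrays and 1040, 1091 and 1101 on the vehicle arrays. Every rapamycin array was thus above every vehicle array, a 1.64-fold rise (log2 change 0.71, SE 0.06, adjusted p = 1.8e-06). All 3 Adamts9 probe sets rose, by 0.52 to 1.20 on the log2 scale. Adamts1, the first ADAMTS described and also a proteoglycan-cleaving enzyme, read 136, 176 and 168 with rapamycin and 310, 297 and 274 with vehicle. The groups were well apart, a 1.84-fold fall (log2 change -0.88, SE 0.09, adjusted p = 7.7e-06), read by a single probe set.

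Adamts5, the main aggrecanase of mouse cartilage, lies next to Adamts1 among the protein-coding genes of mouse chromosome 16 and moved the other way. Its probe set read 465, 540 and 530 with rapamycin and 413, 407 and 368 with vehicle. The rapamycin arrays were all higher (log2 change 0.37, SE 0.07, adjusted p = 0.0014). A second Adamts5 probe set rose by 0.57, and the other two did not pass, at 0.16 and 0.08. Adamts20, a versican-cleaving relative of Adamts9, read 63.4, 59.0 and 65.9 with rapamycin and 39.4, 44.0 and 37.7 with vehicle, a 1.56-fold rise from a dim probe set (log2 change 0.64, SE 0.07, adjusted p = 1.4e-05). Adamts4, Adamts8 and Adamts15 did not pass. The Adamts5 rise did not pass with spike-in scaling (0.18, adjusted p = 0.081).

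Among the other ADAMTS genes 3 of 8 rose and 0 fell, against 2 and 2 with spike-in scaling. Adamts7 and Adamts12, a related pair known to cut cartilage oligomeric matrix protein, both rose. Adamts7 read 206, 197 and 181 with rapamycin and 145, 141 and 131 with vehicle, with no overlap (log2 change 0.48, SE 0.06, adjusted p = 8.0e-05). Adamts12 read 90.2, 89.0 and 86.3 against 62.8, 65.0 and 68.7, close to the limit for a dim probe set (log2 change 0.43, SE 0.06, adjusted p = 6.4e-05); its second, dimmer probe set was at -0.02. Adamts10, which binds fibrillin microfibrils, read 228, 209 and 221 against 185, 172 and 179 (log2 change 0.29, SE 0.06, adjusted p = 0.0017). Of the 2 Adamts10 probe sets only the brighter rose, the other being at 0.04, and with spike-in scaling the gene did not pass (0.10, adjusted p = 0.32). For Adamts16, singled out after its values were seen, the probe set that stands for the gene did not pass (-0.16, adjusted p = 0.075) whereas the other rose by 0.37. Adamts3, which trims procollagen, did not pass. The 5 ADAMTS-like genes, secreted relatives without the catalytic domain, had 0 calls, with log2 changes from -0.11 to 0.12; by limma's unadjusted p under 0.05 the number was also 0, and with spike-in scaling 2 fell.

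**Figure D2:**
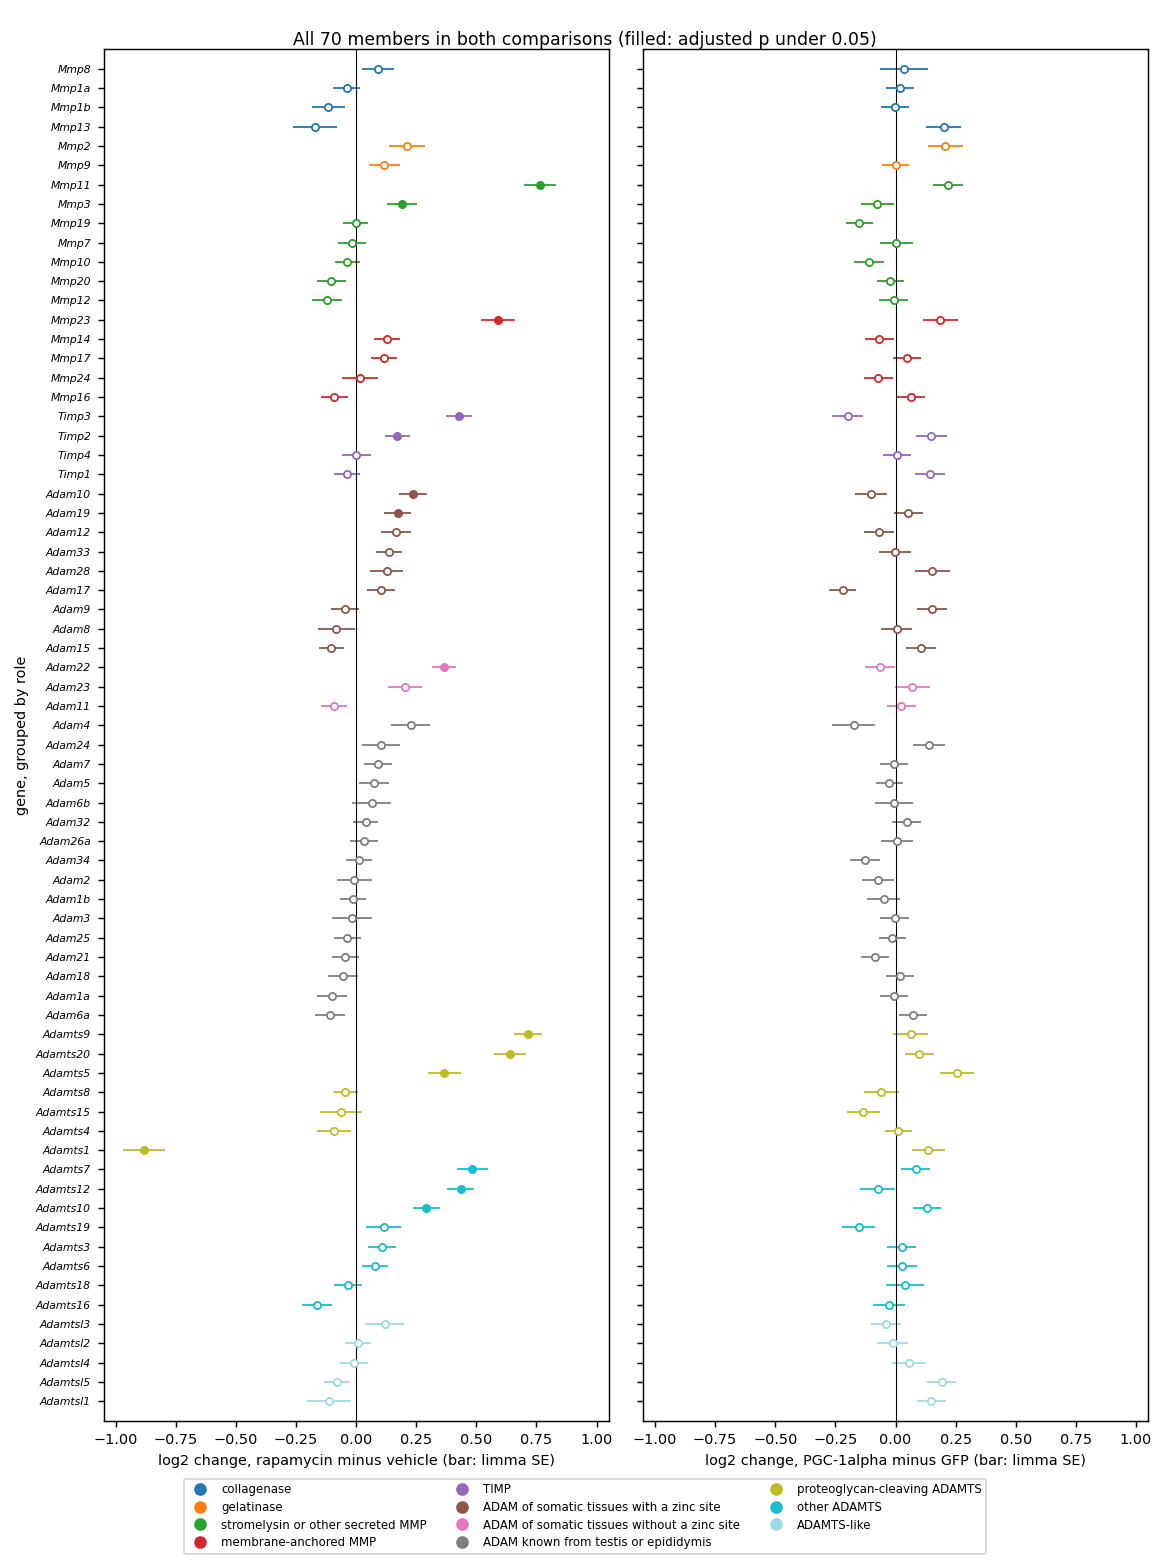
Log2 change of each of the 70 members with its limma SE, with rapamycin on the left and PGC-1alpha on the right, grouped by role; filled points passed the threshold. On the left 14 filled points lie above 0 and 1 below, on the right there are 0 filled points; with spike-in scaling 7 lie above and 25 below on the left.

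Of the 4 TIMPs, Timp3 and Timp2 rose while Timp1 and Timp4 did not pass; with spike-in scaling Timp3 rose and Timp1 fell (-0.23, adjusted p = 0.036). Timp3, the matrix-bound inhibitor that also blocks ADAM17 and aggrecanases, read 5732, 6122 and 5736 with rapamycin and 4321, 4481 and 4264 with vehicle. Every rapamycin array lay above every vehicle array, a 1.35-fold rise (log2 change 0.43, SE 0.05, adjusted p = 6.1e-05). All 4 Timp3 probe sets rose, by 0.41 to 0.48. Timp2, which inhibits MMP2 and also takes part in its activation by MMP14, read 5169, 5521 and 5325 against 4662, 4772 and 4785 (log2 change 0.17, SE 0.05, adjusted p = 0.030). The Timp2 groups were close but did not overlap, and 4 of the 6 probe sets rose, by 0.17 to 0.29. The lower of the 2 that did not pass was at -0.17. The Timp2 call was lost in 5 of the 6 fits that left out 1 array, with adjusted p up to 0.11. Only the fit without rapamycin replicate 1 kept it. Timp1, the inducible inhibitor, read 4966, 5291 and 5286 with rapamycin and 5163, 5311 and 5471 with vehicle, overlapping (log2 change -0.04, SE 0.05, adjusted p = 0.70). Timp4 was dim, with means of 54.3 ± 3.4 and 54.2 ± 1.8 (SD, n = 3 each).

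Secreted and membrane-anchored MMPs differed gene by gene. Mmp11, stromelysin 3, known from stromal fibroblasts of remodelling tissue, read 160, 178 and 163 with rapamycin and 99.7, 90.4 and 105 with vehicle. The groups were well apart, a 1.70-fold rise (log2 change 0.77, SE 0.07, adjusted p = 2.9e-06), read by a single probe set. Mmp23, an MMP anchored by its N-terminus, read 483, 542 and 486 against 309, 327 and 368, a 1.51-fold rise (log2 change 0.59, SE 0.07, adjusted p = 4.2e-05). Its second probe set rose by the same 0.59. The other 4 membrane-anchored MMPs did not pass, among them Mmp14, the main pericellular collagenase and activator of MMP2, with 1130, 1201 and 1114 against 1052, 1029 and 1068 (log2 change 0.13, SE 0.05, adjusted p = 0.11). Mmp14 passed with quantile normalization over 12 arrays (0.21, adjusted p = 0.0075), while with spike-in scaling it was at -0.06 (adjusted p = 0.54). Both gelatinases missed the threshold. Mmp2 read 1799, 2108 and 1782 against 1529, 1615 and 1769, with all rapamycin arrays higher by a narrow margin (log2 change 0.21, SE 0.08, adjusted p = 0.058). Mmp2 passed without vehicle replicate 3 (0.27, adjusted p = 0.028), without dim probe sets, with quantile normalization over 12 arrays, with the replicate block and with a robust trended spread, while with spike-in scaling it was at 0.02 (adjusted p = 0.84). Mmp9 read 102, 98.0 and 91.1 against 87.1, 97.0 and 84.6, overlapping (0.12, SE 0.07, adjusted p = 0.24).

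Mmp3, stromelysin 1, sits in a cluster of MMP genes on mouse chromosome 9 that runs Mmp13, Mmp12, Mmp1b, Mmp3, Mmp1a, Mmp10, Mmp8, Mmp27, Mmp20 and Mmp7. These encode collagenases, stromelysins, the macrophage elastase, the tooth enamel protease and matrilysin, and several are textbook targets of AP-1. The promoters of Mmp3 at chr9:7445572-7445821 (+ strand), Mmp10 at chr9:7502092-7502341 (+ strand) and Mmp13 at chr9:7272264-7272513 (+ strand) are shown because all 3 carry the AP-1 word, in capitals beside the TATA box.
Mmp3: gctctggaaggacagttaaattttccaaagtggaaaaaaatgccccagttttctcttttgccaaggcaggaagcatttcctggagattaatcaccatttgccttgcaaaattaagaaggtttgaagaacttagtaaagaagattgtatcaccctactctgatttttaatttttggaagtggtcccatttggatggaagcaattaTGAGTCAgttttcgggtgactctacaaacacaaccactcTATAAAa
Mmp10: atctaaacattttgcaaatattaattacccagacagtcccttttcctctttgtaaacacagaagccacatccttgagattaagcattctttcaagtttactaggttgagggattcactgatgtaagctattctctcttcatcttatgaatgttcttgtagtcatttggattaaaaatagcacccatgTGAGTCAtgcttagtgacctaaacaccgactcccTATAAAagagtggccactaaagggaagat
Mmp13: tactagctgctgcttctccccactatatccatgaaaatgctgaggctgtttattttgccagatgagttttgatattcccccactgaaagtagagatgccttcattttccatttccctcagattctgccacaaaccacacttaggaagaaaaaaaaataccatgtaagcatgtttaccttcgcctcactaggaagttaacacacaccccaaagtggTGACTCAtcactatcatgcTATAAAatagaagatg
The word began 46 bases before the start in Mmp3, 63 in Mmp10 and 35 in Mmp13. Of the 9 measured genes of the cluster, 8 had it in a window and Mmp8 did not, while 11 of the 41 members with a window had it in all. In Mmp20 and Adam25 the word read TGAATCA, and in Adam1b the word lay after the start. Of the 12 called members with a window, Mmp3 and Adam19 had it; Adamts5, Adamts7 and Adamts10 were not searched.

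Values of the cluster were low and its calls depended on the scaling. Mmp3 read 130, 151 and 131 with rapamycin and 119, 121 and 120 with vehicle, and was the 1 gene of the cluster that rose (log2 change 0.19, SE 0.06, adjusted p = 0.041). The rapamycin arrays were higher by a small margin, most of all replicate 2. Without that replicate the change was 0.12 (adjusted p = 0.118), and the call also ended without vehicle replicate 1, 2 or 3 (adjusted p = 0.107, 0.0913 and 0.0870). With spike-in scaling the Mmp3 change was 0.00. Mmp10, stromelysin 2, overlapped between the groups at 112, 113 and 118 against 114, 118 and 119 (log2 change -0.04, SE 0.05, adjusted p = 0.70). Mmp13, a collagenase, was dim, at 19.5, 21.9 and 21.6 against 21.4, 21.9 and 28.1 (-0.17, SE 0.09, adjusted p = 0.21). In all, 5 of the 9 were dim, and the changes over the cluster ran from -0.17 to 0.19, with 1 raised and 0 lowered. With spike-in scaling 0 rose and 6 of the 9 fell, namely Mmp10 (-0.23, adjusted p = 0.040), Mmp13 (-0.36, adjusted p = 0.0062), Mmp12, Mmp1a, Mmp1b and Mmp20. Mmp12, Mmp1a, Mmp1b and Mmp20 were the other dim genes.

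**Figure D3:**
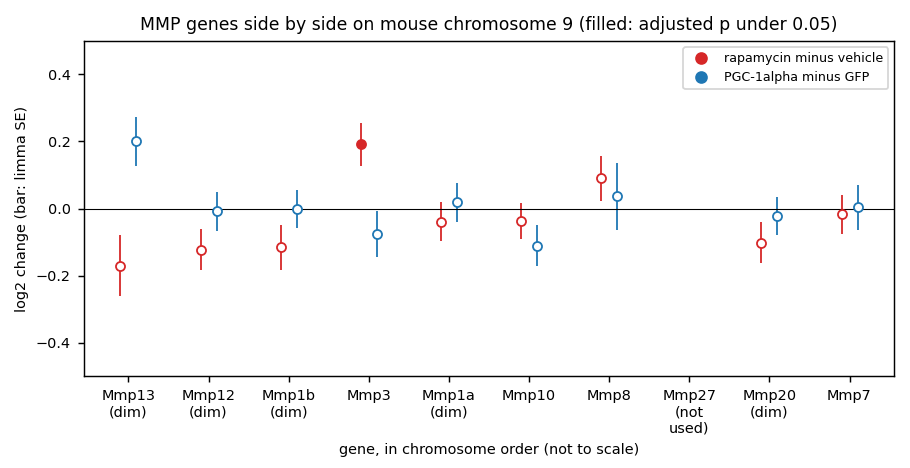
Log2 change with limma SE of the MMP genes of the chromosome 9 cluster, in gene order and not to scale, with rapamycin (red) and PGC-1alpha (blue); the filled point passed the threshold. Only Mmp3 with rapamycin is filled, at 0.19; with spike-in scaling that change was 0.00 and 6 of the 9 genes fell.

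Genes of the AP-1, ETS and RUNX factors, known regulators of MMP promoters, were listed separately. Of 13 measured, 4 rose and 4 fell (1 and 6 with spike-in scaling), where 11.3% of all genes rose and 18.0% fell. Fosl1, a Fos-family subunit, averaged 167 with rapamycin and 313 with vehicle and fell by 0.92 on the log2 scale (SE 0.08, adjusted p = 3.3e-06), Ets2 fell by 0.55 and Jun by 0.51, while Junb rose by 0.46.

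Of 9 somatic ADAMs with a zinc site 2 rose and 0 fell, against 0 and 3 with spike-in scaling. Adam10, the sheddase of Notch and cadherins, read 1972, 2041 and 2194 with rapamycin and 1777, 1766 and 1721 with vehicle. The groups did not overlap (log2 change 0.24, SE 0.06, adjusted p = 0.0071), yet the other 3 Adam10 probe sets did not pass, at 0.04 to 0.10, nor did the mean of the 4, nor the gene with spike-in scaling (0.05, adjusted p = 0.64). Adam19, a neuregulin sheddase, read 395, 397 and 391 against 360, 358 and 332, with no overlap (log2 change 0.17, SE 0.05, adjusted p = 0.034). That call was lost whenever any 1 of the 6 arrays was left out, with adjusted p up to 0.13. Adam17, the sheddase of TNF and of EGF receptor ligands, did not pass, at 472, 468 and 462 against 427, 462 and 417 (0.10, SE 0.06, adjusted p = 0.22), nor did its 2 other probe sets. Adam9 (-0.05) and Adam15 (-0.10) did not pass either, but fell with spike-in scaling (-0.23, adjusted p = 0.025, and -0.29, adjusted p = 0.0087). Adam17 passed with quantile normalization over 12 arrays (0.18, adjusted p = 0.032), while with spike-in scaling it was at -0.09 (adjusted p = 0.40).

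Of the 3 somatic ADAMs that lack the zinc site and act in adhesion, Adam22, the receptor of the secreted protein LGI1, rose. It read 181, 189 and 182 with rapamycin and 142, 143 and 144 with vehicle, tight groups far from overlapping (log2 change 0.37, SE 0.05, adjusted p = 0.00014). Its second probe set was at 0.17 and did not pass (adjusted p = 0.052), and the gene did not pass with spike-in scaling (0.18, adjusted p = 0.083). The 16 ADAMs known from testis or epididymis, where they serve sperm maturation and fertilisation, had 0 calls. By limma's unadjusted p under 0.05 the number was 1, Adam4 (log2 change 0.23, adjusted p = 0.056), whose groups overlapped. Adam4 rose in 6 of the 15 alternatives, with adjusted p from 0.013 to 0.048: the replicate block, without rapamycin replicate 2 (0.30), without vehicle replicate 3 (0.27), without dim probe sets, the mean over probe sets and a robust trended spread. With spike-in scaling Adam4 was at 0.04, and 5 of the 16 fell (Adam18, Adam1a, Adam21, Adam25 and Adam6a). Of these 16, 13 were dim. Over the group the changes ran from -0.11 to 0.23.

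**Figure D4:**
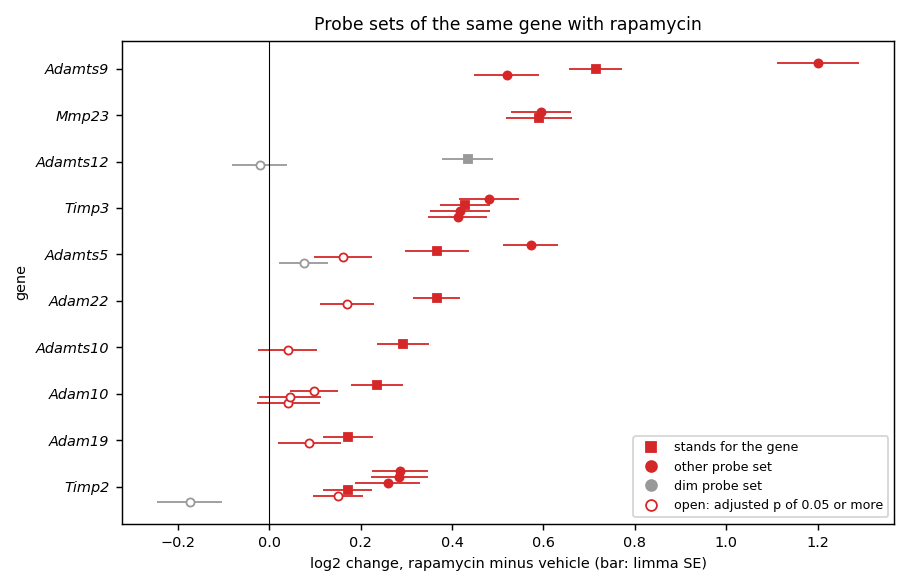
Log2 change with limma SE for every probe set of the raised members with more than 1 probe set; squares stand for the gene, grey points are dim and open points did not pass. All probe sets of Adamts9, Timp3 and Mmp23 are filled, while for Adam10, Adam19, Adam22, Adamts10 and Adamts12 only the square is. With spike-in scaling the squares of Adam10, Adam19, Adam22, Adamts10, Adamts5 and Timp2 did not pass.

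Over all 124 probe sets of the members 27 rose and 2 fell, where 11.5% of all probe sets rose and 14.0% fell, 25.5% in either direction. No member had a raised and a lowered probe set. Of the 10 raised members with several probe sets, all rose in 3 (Adamts9, Mmp23 and Timp3) and only part in the others. Adam23, Adam33 and Adamts16 each had 1 raised probe set that does not stand for the gene, and Adamtsl1 had 1 lowered one.

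Genes that work with these proteases were counted from 7 lists. Of all genes 11.3% rose and 18.0% fell. With spike-in scaling 1448 of all 45037 probe sets rose and 18556 fell. Of 17 partners of MMPs other than TIMPs 4 rose and 0 fell (3 and 3 with spike-in scaling). Reck, a membrane-anchored MMP inhibitor, averaged 120 with rapamycin and 64.0 with vehicle and rose 1.88-fold (log2 change 0.91, SE 0.08, adjusted p = 3.1e-06). Lcn2, which binds MMP9, rose by 1.88 on the log2 scale, and the thrombospondins Thbs1 and Thbs2, which bind MMP2, rose by 0.64 and 0.38. Among proteoglycans and matrix glycoproteins 9 of 22 rose and 1 fell (5 and 5 with spike-in scaling). Ltbp2, a fibrillin-binding protein, rose by 0.90, Has2, a hyaluronan synthase, by 0.66, Ltbp3 by 0.60 and Bgn (biglycan) by 0.50, while Hapln3, a hyaluronan link protein, fell by 0.17. The median change was 0.13 in this list and 0.03 in that of the MMP partners, beside -0.01 over all genes.

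Of 26 proteins known to be shed from membranes 9 rose and 0 fell, where 11.3% of all genes rose and 18.0% fell. With spike-in scaling 1 of the 26 rose and 7 fell. Cxcl16 led with 0.47, followed by Vcam1 (0.39), Cdh2 (0.37) and Sdc4 (0.33). Regulators of ADAM10 and ADAM17 went both ways, with 2 of 10 raised and 2 lowered (1 and 4 with spike-in scaling): the tetraspanin Tspan17 rose by 0.64 and the iRhom gene Rhbdf1 by 0.24, while Tspan5 fell by 0.27 and the iRhom partner Frmd8 by 0.19. Of 9 plasminogen activation genes 1 rose and 3 fell (0 and 6 with spike-in scaling). Plat, tissue plasminogen activator, fell by 0.26, Plaur, the urokinase receptor, by 0.23 and the dim Serpinb2 by 0.27, while Plgrkt, a plasminogen receptor, rose by 0.17. Of 21 other matrix-degrading enzymes 5 rose and 1 fell (2 and 8 with spike-in scaling); Dpp4 rose by 0.47, the lysosomal protease Ctsd by 0.41 and the procollagen C-proteinase Bmp1 by 0.37, while the secreted protease Htra1 fell by 0.43. The median changes of these lists were 0.06, 0.03, -0.08 and 0.01 in that order, and -0.01 in the list of AP-1, ETS and RUNX factors.

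**Figure D5:**
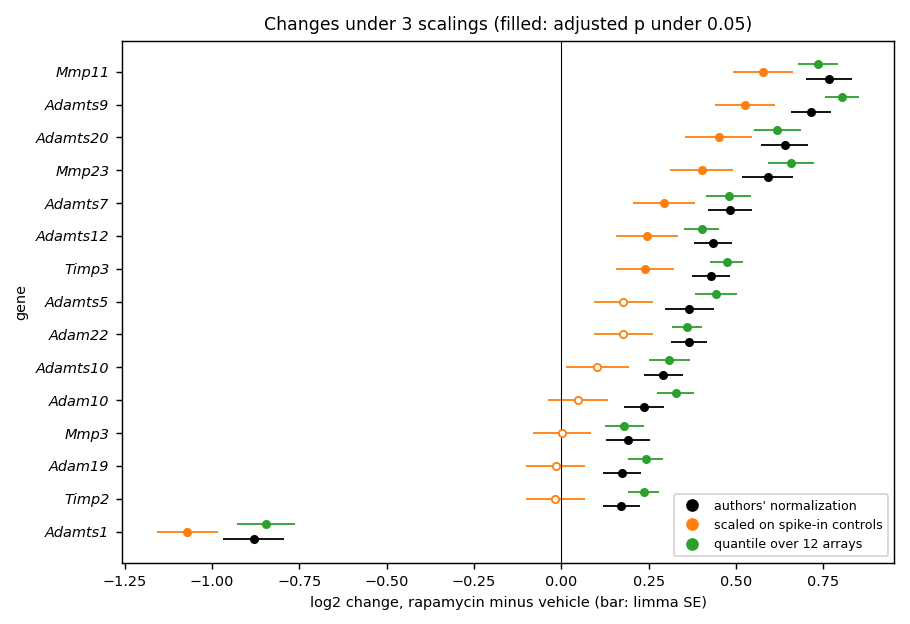
Log2 change with limma SE of the 15 called members under the authors' normalization (black), scaling on the spike-in controls (orange) and quantile normalization over 12 arrays (green); filled points passed the threshold. With spike-in scaling 7 of the 14 raised members stay filled, from Timp3 at 0.24 to Mmp11 at 0.58, and Adamts1 lies at -1.07.

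PGC-1alpha changed 0 of the 70 members by limma at the threshold, where 1.41% of all genes rose and 0.594% fell, 2.01% in either direction. At an unadjusted p under 0.05 there were 15 of the 70 members, beside 12.2% of all genes. Ppargc1a, which encodes PGC-1alpha, averaged 2344 on the PGC-1alpha arrays and 87.8 on the GFP arrays. Scaling on the spike-in controls moved every change by 0.17 on the log2 scale and also gave 0 calls. The median change over the members was 0.01, with extremes of -0.22 for Adam17 and 0.25 for Adamts5. The 2 experiments were normalized apart and their effects were not tested against each other, so the values stand side by side only.

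Adam17 came nearest to a call with PGC-1alpha. It read 349, 357 and 348 with PGC-1alpha and 412, 397 and 420 with GFP, with all PGC-1alpha arrays lower (log2 change -0.22, SE 0.06, adjusted p = 0.075). Of its 2 other probe sets 1 fell by 0.27 (SE 0.06, adjusted p = 0.032) and 1 was at 0.08. Adam17 passed when dim probe sets were left out (adjusted p = 0.049), in 1 fit over 12 arrays (adjusted p = 0.029), with quantile normalization over 12 arrays (adjusted p = 0.027) and with 16 added before the log (adjusted p = 0.045), while spike-in scaling brought the change to -0.05.

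Values of the rapamycin-responsive genes did not pass with PGC-1alpha. Adamts5 read 359, 317 and 310 with PGC-1alpha and 275, 259 and 292 with GFP (log2 change 0.25, SE 0.07, adjusted p = 0.11), all PGC-1alpha arrays being higher. Adamts9 overlapped between the groups, at 1020, 942 and 1052 against 976, 877 and 1034 (0.06, SE 0.07, adjusted p = 0.85). Adamts1 overlapped as well, at 301, 278 and 301 against 268, 248 and 285 (0.14, SE 0.07, adjusted p = 0.47). Timp3 read 4031, 3616 and 3530 against 4128, 4283 and 4397, all PGC-1alpha arrays being lower (-0.20, SE 0.07, adjusted p = 0.20), but its other 3 probe sets were at 0.01 to 0.03. Timp1 was at 0.14 (adjusted p = 0.40) and Timp2 at 0.15 (adjusted p = 0.37), although 1 of the 6 Timp2 probe sets rose, by 0.28. Besides those of Adam17 and Timp2, 1 more of the 124 probe sets passed, a dim one of Adamtsl5 that rose by 0.27. Thus 2 rose and 1 fell, where 0.997% of all probe sets rose, 0.955% fell and 1.95% did either.

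The count of 0 depended on 1 array as well as on the alternatives above in which Adam17 passed. GFP replicate 3 differed from its own group more than any other array did (a mean SD of 0.161 between log2 values, against 0.107 to 0.138 elsewhere). Without it 5 members rose, namely Mmp2 (log2 change 0.28, adjusted p = 0.014), Mmp11 (0.28, adjusted p = 0.012), Mmp23 (0.27, adjusted p = 0.016), Mmp13 (0.27, adjusted p = 0.022) and Adamts5 (0.30, adjusted p = 0.030), and Adam4 fell by 0.28 (adjusted p = 0.034). Of these, Mmp11 and Mmp13 were dim in this experiment. Without GFP replicate 3, 1957 of all 45037 probe sets rose and 880 fell, beside 449 and 430 with all arrays. Leaving out any other array gave 0 calls among the members. Of the 7 lists, 1 gene passed with all arrays: Cd44, the hyaluronan receptor that anchors MMP9 and MMP14 at the cell surface, averaged 2132 with PGC-1alpha and 2974 with GFP and fell by 0.48 on the log2 scale (SE 0.09, adjusted p = 0.016). That call was lost without PGC-1alpha replicate 2 or 3 or GFP replicate 2, and with spike-in scaling.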

How the data were processed

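Gene expression was measured in 12 cultures on Affymetrix MOE430 v2 arrays. What the authors deposited is 1 intensity per probe set and array, made with RMA at default settings in BioConductor 1.2, per the series design text, with rapamycin and vehicle arrays normalized in 1 batch and PGC-1alpha and GFP arrays in another. No label states the scale. The range of 9.30 to 21072 led to a linear reading, and log2 was taken. RMA's quantile step hides changes in total RNA per cell, and 3 arrays a group limit the precision.

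Without the 64 control probe sets, 45037 were fitted, none removed for being dim. The platform annotation lists 1 symbol for 34945 of them, several for 932 and none for 9160; 5 probe sets whose several symbols include a member's were not used. All 70 member symbols were unchanged in the RefSeq table (GRCm38.p6) by Entrez ID. The fit was limma 3.58.1 in R 4.3.3, separately on the 6 arrays of a comparison, two-sided, with Benjamini-Hochberg adjustment and a threshold of 0.05; SE is limma's moderated standard error. It was checked on simulated data. Lists were described by counts, with no set test. Values are given for called members, the 12 brightest, 12 genes listed by name, and up to 4 called genes a list. The members, lists and tests were chosen with earlier results of these data known. The TATA and GC words, and the AP-1 word in members that were not called, were added after the promoters were seen. Python 3.11.15, pandas 2.3.3 and matplotlib 3.10.9 were used.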

Additional observations from a re-analysis of the deposited data

How the results depend on the processing

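Each comparison was refitted under 15 alternatives. With rapamycin, 8 of the 15 calls (Adamts1, Adamts7, Adamts9, Adamts12, Adamts20, Mmp11, Mmp23 and Timp3) kept direction and threshold in every alternative that tested them; the filter on dim probe sets removed Adamts12 and Adamts20. Scaling on spike-in controls gave 7 raised and 25 lowered members, beside 1448 raised and 18556 lowered of all 45037 probe sets. It turned Adam19 to -0.016 and Timp2 to -0.018. Adam4 gained a call in 6 alternatives and Mmp2 in 5. Quantile normalization over 12 arrays gave 19 raised members and 1 lowered, beside 6006 raised and 5927 lowered of all probe sets. The raised members it added were Adam12, Adam17, Adam33, Mmp14 and Mmp2. Lowered members numbered 2 with the filter on dim probe sets. Leaving out each array in turn gave 11 to 15 raised and 1 to 2 lowered members. With the replicate number as a block 17 rose and 1 fell; the numbers are not shown to pair the arrays, since deviations of same-numbered arrays correlated at -0.05, 0.07 and 0.00 with rapamycin and -0.13, 0.23 and -0.01 with PGC-1alpha. Under PGC-1alpha the block gave 0 calls, and leaving out each array gave 0 to 5 raised and 0 to 1 lowered members. There 1 member, Adam17, was lowered with quantile normalization over 12 arrays, with the filter on dim probe sets, in 1 fit over 12 arrays and with 16 added before the log. Except where said above, the cause of these moves was not tested. No detection calls were used, so dim probe sets cannot be told from background.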
